A study of Mus musculus with 14 samples.

Results

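The genes described here encode ubiquitin conjugating enzymes (Ube2 genes) and ubiquitin specific proteases (Usp genes) in adult mouse testis. Every gene whose symbol begins with Ube2, or with Usp followed by a digit, was taken from the joint expression table of the study, which gave 87 genes (the members) of 21905 with a symbol: 35 Ube2 genes and 52 Usp genes. The choice used names and no measured value, so it also took in Usp6nl, whose product acts on a RAB GTPase, and Ube2cbp, whose product binds a conjugating enzyme and is not one itself. RNA was sequenced at successive steps of isolating the chromatoid body, the RNA-rich granule beside the nucleus of round spermatids that carries the helicase MVH. The conditions used were the whole testis lysate (1 library), the supernatant (1 library) and the sediment (pellet1, 1 library) of its centrifugation, the sonicated and filtered sediment (pellet2, 1 library), the material immunoprecipitated with an MVH antibody (MVH IP, 3 libraries), sorted round spermatids (2 libraries, 1 of them from RNA above 500 bp) and sorted round spermatids of mice labelled as heterozygous for MIWI (1 library). All mice were C57BL/6 and at least 6 weeks old, and the cells of the purification were crosslinked with formaldehyde; no other genotype or treatment is named in the labels. The protocol in the labels places the IP after pellet2, while the sample types say lysate. Libraries of control IgG and of an ACR antibody were not analysed here, so RNA held by the MVH antibody and RNA carried over with the beads cannot be told apart.

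Ubiquitin is passed from an activating enzyme (E1) to a conjugating enzyme (E2) and then, with the help of a ligase (E3), to a substrate protein. Ubiquitin specific proteases are the most numerous family of enzymes that take it off again. In the testis this traffic is known for the ubiquitylation of histones before protamines replace them, for the silencing of the sex chromosomes in meiosis and for the removal of cytoplasm and organelles from spermatids.

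Levels are given in FPKM (fragments scaled by transcript length and by the number of mapped fragments). Each condition had 1 deposited value per gene, also where several libraries stood behind it, so no difference has a replicate check, an SD or a p-value of its own, and the depth is unknown. A gene was measured in a comparison if its mean over both conditions was at least 1 FPKM. It was called higher or lower if the log2 ratio of (FPKM + 1) reached 2-fold, and "rose" and "fell" below refer to such calls. This scale understates the change of genes with low values. In bulk samples such as these, fewer cells of a type and less RNA per cell cannot be told apart. Spermatid markers had high levels in all 5 conditions of the joint table. The summed level of 10 markers of round and elongating spermatids (protamines, transition proteins and acrosomal genes among them) lay between 28609 and 44091 FPKM, and none was at 0. Much of this sum came from very abundant transcripts such as Prm1 and Tnp1 (13795 and 15259 FPKM in lysate). Sums over different markers therefore do not compare amounts of cells. The sums of 13 Sertoli cell markers were between 78.2 and 440 FPKM, of 8 Leydig cell markers between 151 and 330 FPKM, and of 7 macrophage and blood markers between 33.7 and 74.9 FPKM.

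The enzymes were widely expressed. Of the 87 genes, 70 were at 1 FPKM or more in all 5 conditions of the joint table and 7 were below 1 FPKM in all of them. In lysate 48 genes reached 10 FPKM and 6 reached 100 FPKM. The median of the 87 genes was 12.4 FPKM for lysate, 11.0 for supernatant, 14.7 for pellet1, 12.1 for pellet2 and 20.8 for the MVH IP, against medians of 1.83, 1.80, 1.85, 1.93 and 3.96 FPKM over all genes with a symbol. None of the 87 genes was listed at 0 in lysate or supernatant, while 7 were in pellet1, 5 in pellet2 and 4 in the MVH IP. The MVH IP held the highest of the 5 values for 56 genes (64.4%, against 54.1% of 19941 genes above 0), the supernatant for 16, lysate for 11, and pellet1 and pellet2 for 2 each.

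The 10 genes highest in lysate spanned several functions. Usp1, which removes ubiquitin from FANCD2 and PCNA in DNA repair, was the highest at 169 FPKM in lysate, and it had 179 FPKM for supernatant, 70.4 for pellet1, 106 for pellet2 and 128 for the MVH IP. Usp15, a deubiquitinase of TGF-beta signalling, had 162, 159, 202, 169 and 349 FPKM in the same 5 conditions. Usp47, known from base excision repair, had 141, 148, 87.0, 116 and 117 FPKM. The top of the order therefore differed by condition, with Usp1 leading in lysate and supernatant and Usp15 in both pellets and the MVH IP. Ube2j1, the membrane-bound conjugating enzyme of endoplasmic reticulum degradation that male mice need for normal sperm, had 126, 130, 80.4, 81.2 and 80.3 FPKM. Usp2, whose loss leaves male mice with poor fertility, had 111, 104, 138, 119 and 163 FPKM. Ube2s, which extends chains for the anaphase-promoting complex, had 101, 104, 67.7, 93.4 and 116 FPKM. Usp7, which stabilises MDM2, had 86.2, 87.7, 83.0, 93.2 and 152 FPKM, and Usp8, an endosomal deubiquitinase also found at the acrosome, had 85.6, 92.0, 47.8, 70.0 and 70.7 FPKM. Usp44, known from the spindle checkpoint, had 64.1, 71.6, 81.6, 64.9 and 90.7 FPKM. Ube2m, the conjugating enzyme of the ubiquitin-like protein NEDD8, closed the list with 57.2, 46.0, 35.4, 36.7 and 12.5 FPKM.

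Usp2 has a long and a short protein form, and their starts are shown here because the MVH IP transcript table lists their transcripts separately. The first 60 coding bases of each, with the start codon in capitals, were read from GRCm38 with the GENCODE vM21 annotation, on the plus strand of chromosome 9. The long form begins at chr9:44075407-44075466 and the short form downstream, at chr9:44085189-44085248.
Usp2 long form: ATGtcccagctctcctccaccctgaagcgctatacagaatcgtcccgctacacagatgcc
Usp2 short form: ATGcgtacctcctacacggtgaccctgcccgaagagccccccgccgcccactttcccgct
The coding sequences are 1857 and 1188 nt long and share their last 1042 nt, so only reads of the differing 5′ parts can assign a form. In the transcript table, whose unit is not named, the long form had levels of 32.0 and 27.9 in the MVH IP for its 2 transcripts, which have the same coding sequence, and the short form had 13.0.

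The supernatant was close to lysate for these genes. None of 76 measured genes was called higher or lower, where 0.751% of all 12777 genes were called higher and 1.46% lower. The median log2 ratio was -0.03, against -0.01 over all genes, and the extremes were Usp51 at -0.97 and Usp10 at 0.64. Both extremes were low in level, with 0.722 FPKM in supernatant and 2.38 FPKM in lysate for Usp51.

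In pellet1, 8 of 76 measured genes rose and 5 fell relative to lysate, against 16.8% of all genes called higher and 9.41% called lower, so both shares (10.5% and 6.58%) were below the background. The median log2 ratio was -0.03, with 0.07 over all genes. Ube2c, the conjugating enzyme of the anaphase-promoting complex, rose to 44.4 FPKM in pellet1, against 14.6 FPKM in lysate (log2 ratio 1.54). Usp42, a deubiquitinase of p53 and histone H2B, rose to 95.5 FPKM, against 38.1 FPKM in lysate (1.30). Usp38 had 20.7 FPKM in pellet1 and 7.27 FPKM in lysate (1.39), and Usp54 had 30.3 FPKM in pellet1 and 12.4 FPKM in lysate (1.22). Usp51, an X-linked deubiquitinase of histone H2A, showed the largest increase, with 10.8 FPKM in pellet1 and 2.38 FPKM in lysate (1.80). These genes were also above lysate in pellet2 and the MVH IP. Markers of other cells moved too: 6 of 8 Leydig cell markers were lower in pellet1 than in lysate (summed level 151 FPKM in pellet1 and 330 FPKM in lysate), as were 3 of 8 Sertoli cell and 2 of 8 meiotic markers, and their part in the values of the enzymes was not tested.

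The genes that fell in pellet1 included the related conjugating enzymes Ube2e1 and Ube2e3, but not Ube2e2. Ube2e1 had 0.380 FPKM in pellet1 and 10.9 FPKM in lysate (log2 ratio -3.11), and then 2.81 FPKM in pellet2 and 11.1 FPKM in the MVH IP. Ube2e3 had 3.23 FPKM in pellet1 and 12.3 FPKM in lysate (-1.65), whereas Ube2e2 had 6.69 and 4.43 FPKM (0.50). The Ube2e1 locus overlaps another gene, Nkiras1, and 59.01% of the 50-base words of its transcript occur in other genes too. Usp1 had 70.4 FPKM in pellet1 and 169 FPKM in lysate (-1.25). Usp53 had 2.72 FPKM in pellet1 and 8.79 FPKM in lysate (-1.40). Usp14, the deubiquitinase bound to the proteasome, had 2.40 FPKM in pellet1 and 6.31 FPKM in lysate (-1.10).

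Fewer genes differed between pellet2 and lysate. Of 77 measured genes 4 rose (5.19%) and 2 fell (2.60%), against 12.5% and 7.21% of all genes. The median log2 ratio was 0.02, with 0.08 over all genes. Ube2e2 rose to 11.4 FPKM in pellet2, against 4.43 FPKM in lysate (log2 ratio 1.19). Usp36, a deubiquitinase of the nucleolus, had 3.61 FPKM in pellet2 and 1.07 FPKM in lysate (1.15). The X-linked genes Usp26, expressed chiefly in testis, and Usp51 were at 4.72 and 5.78 FPKM in pellet2 and at 1.68 and 2.38 FPKM in lysate (1.09 and 1.00); after centring on the median of all genes Usp51 was no longer past 2-fold. Ube2e1 fell in pellet2 as in pellet1 (-1.64), and Ube2a fell to 1.45 FPKM, against 4.35 FPKM in lysate (-1.13). The Sertoli cell markers were lower in pellet2 for 5 of 8 measured and the Leydig cell markers for 4 of 8, with summed levels of 105 and 178 FPKM in pellet2 against 147 and 330 FPKM in lysate. The part of this shift in the values of the enzymes was not tested.

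The MVH IP was set against lysate to ask what the purified material carries compared with whole testis. Of 78 measured genes 33 rose and 5 fell, against 47.3% of all 13855 genes called higher and 7.53% called lower. The genes' own shares were 42.3% and 6.41%, and their median log2 ratio was 0.81, against 0.92 over all genes. Because the median of all genes stood this far above 0, ratios were also centred on it. After centring, 7 genes were higher and 18 lower, against 18.7% and 20.6% of all genes. The Usp genes had a median of 0.97 with 22 of 46 higher and 3 lower, and the Ube2 genes a median of 0.40 with 11 of 32 higher and 2 lower. The 7 genes that were higher on both scales were Ube2a, Ube2cbp, Ube2g1, Ube2g2, Usp26, Usp38 and Usp51.

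**Figure D1:**
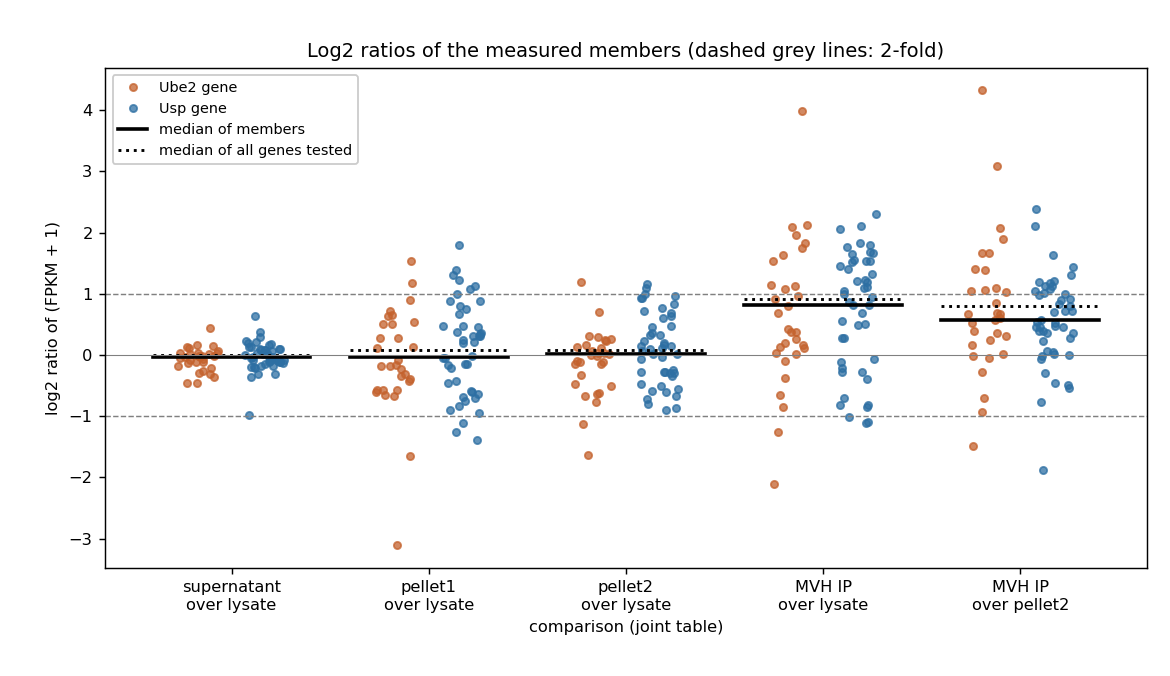
Log2 ratios of (FPKM + 1) of the measured Ube2 and Usp genes in 5 comparisons of the joint table, 1 point per gene, with the median of these genes (solid line) and of all genes (dotted line). The points lie within 2-fold for supernatant over lysate, and for MVH IP over lysate their median of 0.81 lies just under the 0.92 of all genes.

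Among the conjugating enzymes of endoplasmic reticulum degradation, 2 of 4 measured genes rose in the MVH IP and none fell, with a median log2 ratio of 1.26. This share of 50% lay near the 47.3% of all genes called higher, and after centring 2 were higher and 1 lower (median 0.34). Ube2g2 (chr10:77085066-77108735, mm9), the partner of the ligase gp78, had 32.1 FPKM for lysate, 29.2 for supernatant, 53.2 for pellet1, 38.0 for pellet2 and 143 for the MVH IP. Its MVH IP value was the only one of the 5 above 100 FPKM, and the log2 ratio to lysate was 2.13. Ube2g1 (chr11:72420763-72499983), a related enzyme, had 2.85, 3.18, 3.69, 2.90 and 15.4 FPKM in the same 5 conditions (log2 ratio to lysate 2.09). The first 4 values lay close together, and the MVH IP value stood above them. Ube2k, which builds chains linked through lysine 48, differed less, with 70.7 FPKM in the MVH IP and 52.6 FPKM in lysate (0.42). Ube2j1 went the other way, with 80.3 FPKM in the MVH IP and 126 FPKM in lysate (-0.65), a difference short of 2-fold. The separate tables had 313 FPKM for it in the MVH IP and 57.5 FPKM in lysate (2.42), but they are scaled apart from the joint table. Over all genes the separate values differed from the joint ones by a median log2 of -1.29 for lysate and 0.20 for the MVH IP. Ratios of MVH IP to lysate therefore run higher there, and the MVH IP value of Ube2j1 lay a further log2 of 1.76 above that shift.

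Of the 4 measured conjugating enzymes of ubiquitin-like proteins, both that carry NEDD8 fell in the MVH IP. Ube2m (chr7:13620587-13623619) fell to 12.5 FPKM in the MVH IP, against 57.2 FPKM in lysate, the lowest log2 ratio of all measured members (-2.11). Ube2f, the other NEDD8 enzyme, fell to 15.5 FPKM, against 38.5 FPKM in lysate (-1.26). In the pellets neither differed from lysate by 2-fold, with Ube2f at 30.2 FPKM in pellet1 and 30.5 in pellet2. Ube2z, which is charged by the activating enzyme UBA6, had 23.5 FPKM in the MVH IP and 7.42 FPKM in lysate (1.54); it lies outside the rule for named genes and was picked after its values were seen. The list's median was -0.57, with 1 of 4 higher and 2 lower beside 47.3% and 7.53% of all genes.

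Ube2a and Ube2b encode the mouse versions of yeast Rad6, which ubiquitylates histone H2B and PCNA, and male mice without Ube2b are infertile. Their coding sequences were 77.6% identical over 456 nt. A stretch of 90 coding bases, codons 74 to 103, is shown because reads from this conserved region around the active site can still be assigned: 17 bases, in capitals, differ between the genes, and the transcripts shared no 50-base word with any other gene. The bases come from GRCm38 with GENCODE vM21, from the plus strand of chromosome X for Ube2a and the minus strand of chromosome 11 for Ube2b, and cross an exon boundary.
Ube2a: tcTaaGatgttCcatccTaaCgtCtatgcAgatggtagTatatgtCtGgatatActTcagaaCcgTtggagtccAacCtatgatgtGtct
Ube2b: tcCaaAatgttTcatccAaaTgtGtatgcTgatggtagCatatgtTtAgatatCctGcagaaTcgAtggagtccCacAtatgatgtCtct
The levels differed more than the sequences. Ube2a (chrX:34414361-34424215, mm9) had 4.35 FPKM for lysate, 3.47 for supernatant, 2.97 for pellet1, 1.45 for pellet2 and 19.8 for the MVH IP. Ube2b (chr11:51798648-51813968) had 54.0, 53.2, 59.5, 55.1 and 119 FPKM. Ube2b was thus the more abundant in every condition, and both had their highest value in the MVH IP, with log2 ratios to lysate of 1.96 for Ube2a and 1.12 for Ube2b. Ube2n, which makes chains linked through lysine 63, had 44.8 FPKM in the MVH IP and 48.3 FPKM in lysate (-0.10). In the separate tables, where ratios of MVH IP to lysate run higher as given above for Ube2j1, its log2 ratio was 1.41. Of its inactive partners, Ube2v2 had 11.4 FPKM in the MVH IP and 3.0 FPKM in lysate (1.63). Ube2v1, outside the rule for named genes and added after its values were seen, had 19.7 FPKM in the MVH IP and 17.9 FPKM in lysate (0.13). Over the 6 measured genes of this list 3 rose and none fell, with a median of 0.75, below the 0.92 of all genes, of which 47.3% were called higher; after centring 1 was higher and 1 lower (median -0.17).

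Among the cell cycle enzymes, a list that shares Ube2g1 and Ube2k with that of endoplasmic reticulum degradation, 3 of 7 rose and none fell (median 0.42), a share of 42.9% beside 47.3% of all genes. After centring 1 was higher and 1 lower (median -0.50). Ube2c rose to 51.6 FPKM in the MVH IP, against 14.6 FPKM in lysate (1.75), while Ube2s, its partner at the anaphase-promoting complex, had 116 FPKM in the MVH IP and 101 FPKM in lysate (0.20). Ube2cbp (chr9:86200841-86358523), which encodes a protein that binds the Ube2c enzyme, had the largest increase of all, with 0.375 FPKM for lysate, 0.259 for supernatant, 0 for pellet1, 0.0866 for pellet2 and 20.8 for the MVH IP. On the log2(FPKM + 1) scale its ratio to lysate was 3.98. It was below 1 FPKM outside the MVH IP, and the separate MVH IP gene table, which starts at 5 FPKM, did not list it. The Ube2d, Ube2e and Ube2w class had a median of 0.38, with 1 of 7 higher and none lower. Ube2h, an enzyme of erythroid and histone ubiquitylation, had 5.34 FPKM in the MVH IP and 7.26 FPKM in lysate (-0.38).

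Deubiquitinases that act on histones rose for 4 of 8 measured genes and fell for none, with a median log2 ratio of 1.07. This share of 50% was near the 47.3% of all genes called higher, and after centring 1 was higher and 1 lower (median 0.15). Usp3, which acts on histones H2A and H2B, had 21.0 FPKM in the MVH IP and 7.77 FPKM in lysate (1.33). Usp21, a histone H2A deubiquitinase, had 15.4 FPKM in the MVH IP and 4.16 FPKM in lysate (1.67). Usp22, the deubiquitinase of the SAGA complex, had 6.82 FPKM in the MVH IP and 1.94 FPKM in lysate (1.41). Usp16, which removes ubiquitin from H2A in mitosis, showed no such difference, with 44.9 FPKM in the MVH IP and 51.9 FPKM in lysate (-0.21). Usp7 was at 152 FPKM in the MVH IP and 86.2 FPKM in lysate (0.81), and Usp44 differed by 0.49.

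Among the Usp genes outside that list and off the sex chromosomes, Usp38 showed the largest increase, and Usp42 and Usp54 were also among the higher ones. The list did not hold Usp42, although Usp42 acts on histone H2B too, so its counts leave this gene out. Usp38 had 33.4 FPKM in the MVH IP and 7.27 FPKM in lysate (2.05). Usp42 (chr5:144471195-144493149) had 38.1 FPKM for lysate, 35.8 for supernatant, 95.5 for pellet1, 73.5 for pellet2 and 131 for the MVH IP (log2 ratio of MVH IP to lysate 1.76). Usp54 had 12.4, 10.8, 30.3, 25.2 and 42.3 FPKM (1.69). All 3 of Usp38, Usp42 and Usp54 had their values in the pellets between those of lysate and the MVH IP. Usp15 rose to 349 FPKM in the MVH IP, the highest value of any member in the joint table, against 162 FPKM in lysate (1.10). Usp30, a deubiquitinase of the mitochondrial outer membrane, had 16.7 FPKM in the MVH IP and 5.18 FPKM in lysate (1.52).

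The 3 Usp genes that fell were Usp33, Usp34 and Usp24, all near the 2-fold limit. Usp34, known from Wnt signalling, had 23.3 FPKM in the MVH IP and 50.9 FPKM in lysate (-1.09). Usp24 had 8.02 FPKM in the MVH IP and 17.2 FPKM in lysate (-1.01), and its log2 ratio in the separate tables was 0.026. Over all genes the separate values lay apart from the joint ones by a median log2 of -1.29 for lysate and 0.20 for the MVH IP. Ratios of MVH IP to lysate therefore run higher in the separate tables, and a value near 0 there does not show that the difference was absent. Usp33 had 1.06 FPKM in the MVH IP and 3.43 FPKM in lysate (-1.10). Short of this limit, Usp14 was at 3.16 FPKM in the MVH IP and 6.31 FPKM in lysate (-0.82) and Usp1 at 128 and 169 FPKM (-0.40). In the separate tables, where such ratios run higher, Usp1 had 200.2 FPKM in the MVH IP and 63.4 FPKM in lysate (1.64). In the joint table the values of Usp1, Usp14 and Usp34 in pellet1, pellet2 and the MVH IP all lay below that of lysate. Usp10, whose product binds the stress granule protein G3BP, was the only member at 1 FPKM or more in the other 4 conditions that was listed at 0 in the MVH IP, with 1.38 FPKM in lysate; it was picked for this after its values were seen.

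The cell type markers moved as well in this comparison. Of the Sertoli cell markers 7 of 11 measured rose in the MVH IP and 3 fell, with a summed level of 440 FPKM in the MVH IP and 147 FPKM in lysate, although Amh (also at 0 in lysate), Inha, Rhox8 and Fshr were at 0 in the MVH IP. Of the Leydig cell markers 1 rose and 2 fell of 8, summing to 230 FPKM in the MVH IP and 330 FPKM in lysate, with Hsd3b6 at 0 in the MVH IP. Of the macrophage and blood markers 1 rose and 3 fell of 5 (33.7 FPKM in the MVH IP and 74.9 FPKM in lysate), with Cd68 at 0. Of the spermatid markers 2 of 10 rose and none fell, and none of 8 meiotic markers was called. Of all genes 47.3% were called higher and 7.53% lower. After centring, 4 Sertoli cell markers were higher and 3 lower. On that scale no marker of the other lists was higher, while 7 Leydig cell, 3 macrophage and blood, 3 spermatid and 3 meiotic markers were lower. The part of these cell types in the levels of the enzymes was not tested.

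The authors' deposited table, from Cuffdiff, called 2 of 70 tested members between the MVH IP and lysate at q under 0.05, against a background of 7.05% higher and 0.115% lower among all 10430 genes tested. In the authors' deposited table these were Ube2g2 (q = 0.0190) and Ube2cbp (q = 0.0431), both higher in the MVH IP, and 17 members had an unadjusted p under 0.05. Between the MVH IP and the supernatant, the authors' deposited table called 5 of 71 members, against a background of 9.16% higher and 0.117% lower among all 11096 genes tested. In the authors' deposited table these were Ube2g2 (q = 0.00690), Usp38 (q = 0.0185), Ube2cbp (q = 0.0205), Usp42 (q = 0.0356) and Usp54 (q = 0.0378), and all 5 were higher in the MVH IP. In the other 8 pairs the authors' deposited table called no member. Its counts at an unadjusted p under 0.05 were 5 for pellet1 and 0 each for supernatant and pellet2, all against lysate, and 6 for the MVH IP against pellet2. Over all genes, the authors' deposited table called 2.16% higher and 0.0999% lower in pellet1 than in lysate, 0.965% and 0.0302% in pellet2, and 0% and 0.00947% in supernatant. No Cuffdiff result was given for Usp2 and Usp19 in 4 of the 10 pairs each in the authors' deposited table.

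Set against pellet2, from which the protocol says the IP was made, 25 of 79 measured genes rose in the MVH IP and 2 fell, against 39.9% of all genes called higher and 5.78% called lower. The members' shares were 31.6% and 2.53%, and their median log2 ratio was 0.57, with 0.79 over all genes. After centring 6 were higher and 10 lower, against 14.2% and 13.7% of all genes. Ube2cbp (4.32) and Ube2a (3.09) had the largest log2 ratios, followed by Usp21 (2.39), Usp30 (2.11) and Ube2g1 (2.07). Ube2m was lower in the MVH IP (12.5 FPKM) than in pellet2 (36.7 FPKM), with a log2 ratio of -1.48, and the other gene called lower was Usp10, listed at 0. The smallest q of any member here in the authors' deposited table was 0.0590, for Ube2g2, and of all genes it called 0.89% higher and 0.142% lower. Of the Sertoli cell markers 7 of 8 measured were higher in the MVH IP than in pellet2, summing to 440 and 105 FPKM, and their part in these values was not tested.

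Of the 87 genes, 8 lie on the sex chromosomes: Ube2a, Ube2dnl, Usp11, Usp26, Usp27x, Usp51 and Usp9x on X and Usp9y on Y. They were grouped by the coordinates in the files; Ube2dnl, Usp11 and Usp27x are outside the rule for named genes. In the MVH IP 6 of the 7 measured rose relative to lysate and none fell, with a median log2 ratio of 1.83. Over all 518 measured genes on X and Y, 348 rose and 24 fell (median 1.35), against a median of 0.90 over autosomal genes and of 0.69 over the 71 autosomal members. Higher ratios of sex-linked genes were therefore seen beyond these enzymes. Usp51 (chrX:149441012-149444002) had 2.38 FPKM for lysate, 0.722 for supernatant, 10.8 for pellet1, 5.78 for pellet2 and 15.8 for the MVH IP (log2 ratio of MVH IP to lysate 2.31). Usp26 (chrX:49107136-49154410) had 1.68, 2.04, 4.84, 4.72 and 10.5 FPKM (2.10). Usp11 had 2.62, 3.23, 6.63, 5.44 and 11.9 FPKM (1.83). Each of these 3 genes had its lowest values in lysate and supernatant, intermediate values in both pellets and the highest in the MVH IP. Usp9x, the X-linked homolog of the fruit fly gene fat facets, had 15.1, 14.3, 18.1, 17.5 and 31.1 FPKM, which fell just short of 2-fold (0.99). Usp9y, its Y-linked homolog known in men from the azoospermia factor region, had 2.37, 1.63, 5.21, 4.57 and 6.68 FPKM (1.19). The pair shared no 50-base word, so exactly matching reads of at least that length could be told apart. Usp9x was the higher in each condition, and 7.30% of its 50-base words occur in other genes. Ube2dnl, an X-linked copy related to the Ube2d genes, rose to 34.4 FPKM in the MVH IP, against 9.0 FPKM in lysate (1.82). Usp27x was below 1 FPKM throughout.

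**Figure D2:**
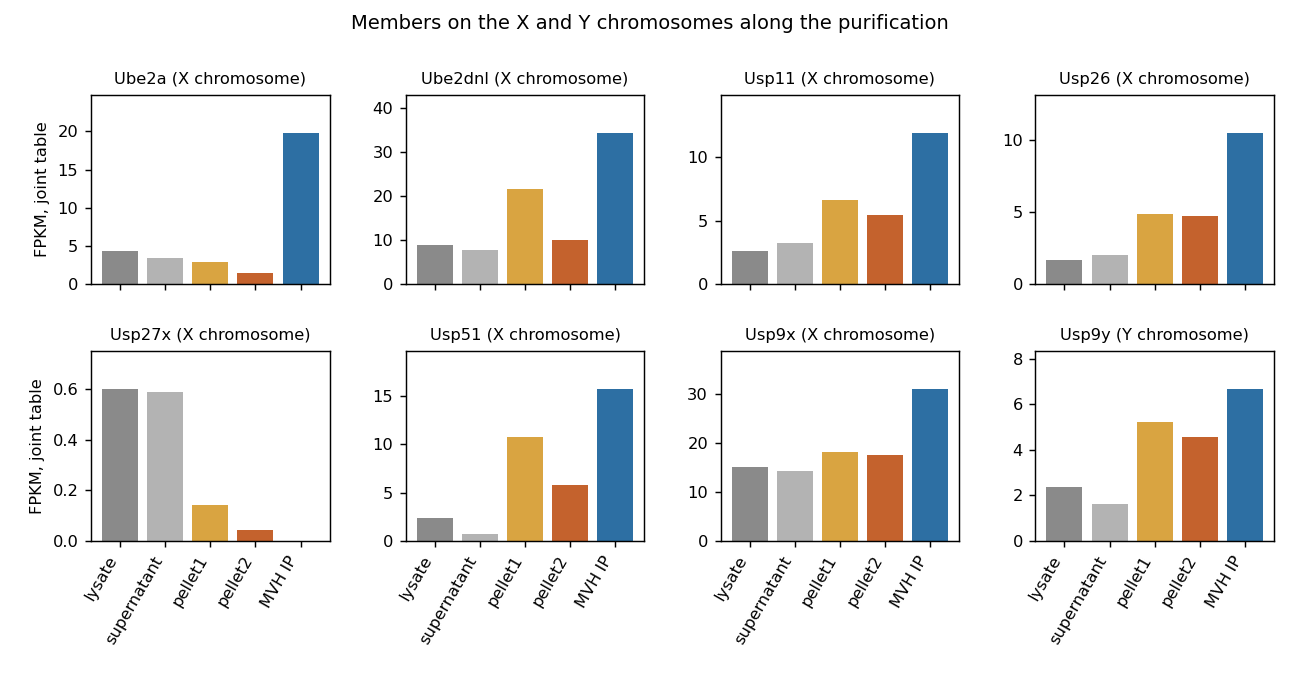
Bars give the FPKM of the joint table for the 8 genes on the X and Y chromosomes in lysate, supernatant, pellet1, pellet2 and MVH IP, each panel with its own axis from 0. In all panels but that of Usp27x, which stayed below 1 FPKM, the MVH IP bar is the highest, as for Ube2a at 19.8 FPKM against 4.35 FPKM in lysate.

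In pellet1 4 of these 7 genes rose relative to lysate and none fell (median 1.08), while 79 of 434 genes on X and Y rose and 33 fell (median 0.33). Between the MVH IP and pellet2, 4 of 7 rose and none fell (median 1.01), with 303 of 519 genes on X and Y higher and 22 lower (median 1.20).

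Sorted round spermatids were deposited in a gene table of their own, scaled apart from the others and starting at 5 FPKM, so they were set against the separate lysate table. The round spermatid table listed 50 of the 87 genes and that of lysate listed 43, with 38 in common. Of these 38 genes 13 rose in round spermatids and none fell, against 22.6% and 3.61% of all 4105 genes listed in both. The median log2 ratio was 0.46, with 0.31 over all genes, and after centring 10 were higher and 2 lower, against 15.2% and 8.04% of all genes. Spermatid markers were not higher in this table: 5 of 10 were lower in round spermatids than in lysate and none higher. Of the 8 meiotic markers 5 were listed in both tables, with 1 lower in round spermatids and none higher. None of the Sertoli, Leydig, or macrophage and blood markers was listed in round spermatids. Direction depended on the lysate table. The separate lysate values lay below those of the joint table by a median log2 of -1.29, and when lysate came from the joint table, 4 genes were called higher in round spermatids and 6 lower (median -0.34).

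Usp49, a deubiquitinase of histone H2B, had the largest log2 ratio (2.25), with 53.0 FPKM in round spermatids and 10.4 FPKM in lysate. Ube2k had 99.0 FPKM in round spermatids and 21.3 FPKM in lysate (2.17), and Usp48 had 39.2 FPKM in round spermatids and 8.17 FPKM in lysate (2.13). Usp16 had a log2 ratio of 1.81. Ube2j1 was the highest conjugating enzyme in round spermatids at 182 FPKM, against 57.5 FPKM in lysate (1.65), and Usp1 was at 154 FPKM, against 63.4 FPKM in lysate (1.26). Against lysate of the joint table Usp1 turned (-0.14), and Ube2k (0.90), Usp48 (0.996), Usp16 (0.58) and Ube2j1 (0.53) no longer reached 2-fold, while Usp49 did (1.64). The 3 conjugating enzymes of endoplasmic reticulum degradation listed in both tables, Ube2g2, Ube2j1 and Ube2k, were all called higher, where 22.6% of all genes were. None of the 3 calls held against lysate of the joint table, where Ube2g2 had 32.1 FPKM, against 54.2 FPKM in round spermatids. Little difference was seen for Ube2n (37.1 FPKM in round spermatids and 36.3 FPKM in lysate) and Ube2m (31.0 and 33.8 FPKM). Usp2 was listed at 171 FPKM in round spermatids but not in the separate lysate table, although the joint table had 111 FPKM for it in lysate.

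Between the separate MVH IP table, which listed 59 of the 87 genes, and round spermatids, 39 genes were in common. Of these 27 rose in the MVH IP and 1 fell, against 75.4% and 0.545% of all 3855 genes. The median log2 ratio of 1.90 stood beside 1.85 over all genes, and after centring 6 were higher and 11 lower, against 20.3% and 21.5% of all genes. Ube2g2 had the largest ratio (4.39), with 1159 FPKM in the MVH IP and 54.2 FPKM in round spermatids. Usp48 (426 FPKM in the MVH IP and 39.2 FPKM in round spermatids), Usp20, Ube2v2 and Usp45 followed with log2 ratios between 3.28 and 3.41. Ube2f was the gene that fell, with 8.16 FPKM in the MVH IP and 19.2 FPKM in round spermatids (-1.14). Ube2m was listed in round spermatids at 31.0 FPKM and not in the MVH IP table, as were 11 of the 50 members listed in round spermatids. The same held for 1101 of all 4956 genes listed in round spermatids. Absence from the MVH IP table did not mark a low level. Usp2 and Usp44, also among the 11, had 163 and 90.7 FPKM in the MVH IP of the joint table.

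The value of the MVH IP depended on the table for some members. Over 7799 genes the separate value exceeded the joint one by a median log2 of 0.20, and 11.3% of genes lay 4-fold or more from that shift. Of the 59 members 6 did so (10.2%): Ube2d1, Ube2g2, Ube2j2, Ube2k, Ube2v2 and Usp48, of which Ube2d1 and Ube2j2 are named here for this difference. All 6 had the higher value in the separate table. This count leaves out members that the separate table does not list, although it starts at 5 FPKM. Among these, Usp2 was at 163 FPKM, Usp44 at 90.7 FPKM and Usp16 at 44.9 FPKM in the joint MVH IP. Ube2g2 was at 1159 FPKM in the separate table and 143 FPKM in the joint one, and the transcript table, with its unnamed unit, had 84.7. Ube2j2, a membrane-bound enzyme like Ube2j1, was at 134 FPKM in the separate table and 0.0721 FPKM in the joint one; its locus overlaps Gm5801. For Ube2k the values were 373 and 70.7 FPKM, for Ube2v2 140 and 11.4 FPKM, and for Usp48 426 and 40.6 FPKM. No member lay 4-fold apart between the transcript table and the joint table (0 of 44) or between the lysate tables (0 of 43). The size of the ratios of Ube2g2, Usp48 and Ube2v2 to round spermatids rests on the separate value. With the MVH IP taken from the joint table, Ube2v2 changed sign. Usp48 then had 40.6 FPKM in the MVH IP, against 39.2 FPKM in round spermatids. Ube2g2 stayed past 2-fold, with 143 FPKM in the MVH IP and 54.2 FPKM in round spermatids.

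**Figure D3:**
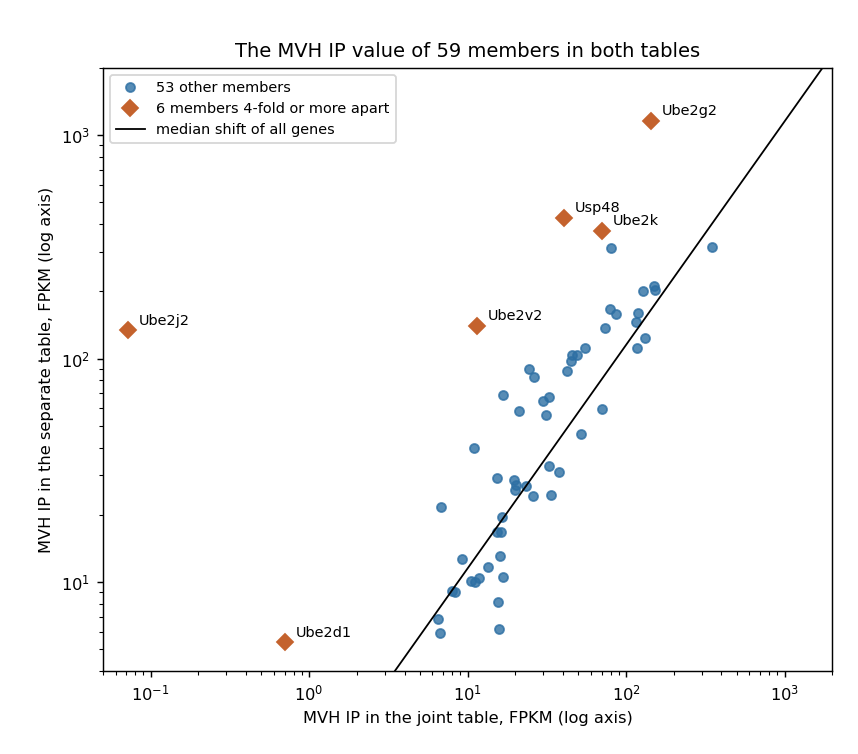
The MVH IP value of 59 genes in the separate gene table (vertical) against that in the joint table (horizontal), both in FPKM on log axes, with the median shift of all genes as a line. The 6 genes drawn as diamonds lie 4-fold or more above the line, with Ube2g2 at 1159 and 143 FPKM.

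The library labelled hetMIWI was compared with round spermatids for 22 genes listed in both tables. Piwil1, which encodes MIWI, was not lower in it, with 7.79 FPKM in the library labelled hetMIWI and 5.01 FPKM in round spermatids, so its level did not check the label. Of the 22 genes 1 rose and 6 fell, against 12.7% of all 2536 genes called higher and 10.5% called lower. The members' median log2 ratio was 0.16, with 0.43 over all genes, and after centring none was higher and 7 were lower, against 3.59% and 18.3% of all genes. Usp4, a deubiquitinase linked to the spliceosome, was the gene that rose, with 57.3 FPKM in the library labelled hetMIWI and 27.0 FPKM in round spermatids (1.06). Ube2g2 fell to 12.3 FPKM in the library labelled hetMIWI, against 54.2 FPKM in round spermatids (-2.06). Ube2k fell to 25.0 FPKM, against 99.0 FPKM in round spermatids (-1.94). Usp48 fell to 10.02 FPKM, against 39.2 FPKM in round spermatids (-1.87). Ube2j1 (-1.57) and Usp32 (-1.55), a deubiquitinase of endosomal RAB7, also fell. All 3 measured conjugating enzymes of endoplasmic reticulum degradation were thus lower in this library, the same 3 that were called higher in round spermatids than in lysate of the separate table; both comparisons use the round spermatid values. Of the spermatid markers 1 of 7 was higher in the library labelled hetMIWI and 2 lower. The 3 meiotic markers listed in both tables were not called, with log2 ratios from 0.88 to 0.92 beside the median of 0.43 over all genes. The part of these cell types in the values of the enzymes was not tested. The tables differed in length. Of the 50 members listed in round spermatids, 28 were missing from that of the library labelled hetMIWI, Usp1, Usp2 and Usp7 among them. The same held for 2420 of all 4956 genes listed in round spermatids.

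Genes acting before, beside and after these enzymes were also compared between the MVH IP and lysate, where 47.3% of all genes were called higher and 7.53% lower. Of 9 measured activating enzymes 4 rose and 1 fell (median log2 ratio 0.77). Uba1, the main one, had 79.9 FPKM in the MVH IP and 34.6 FPKM in lysate, and its Y-linked copy Ube1y1 had 25.1 FPKM in the MVH IP and 8.06 FPKM in lysate. Of 11 genes of ubiquitin and its relatives 3 rose and 1 fell (median 0.11): Nedd8 itself rose to 154 FPKM, against 33.4 FPKM in lysate, opposite in direction to Ube2m and Ube2f, and the ubiquitin gene Ubb fell to 291 FPKM, against 736 FPKM in lysate. Deubiquitinases of other families rose for 15 of 29 genes and fell for none (median 1.05), and ubiquitin ligases and their subunits, listed for roles in testis, rose for 16 of 48 and fell for 3 (median 0.43). Among the ligases Rnf151, expressed in spermatids, had 289 FPKM in the MVH IP and 64.6 FPKM in lysate, and Phf7, a histone ligase of spermatids, had 330 FPKM in the MVH IP and 777 FPKM in lysate. All of these medians but that of the other deubiquitinases lay below the 0.92 of all genes. After centring, 0 activating enzymes were higher and 3 lower, 2 genes of ubiquitin and its relatives higher and 5 lower, 5 other deubiquitinases higher and 4 lower, and 2 ligases higher and 14 lower.

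Several members cannot be measured apart from other loci. The locus of 10 of the 87 genes overlaps another gene, and the sources used here do not say whether counting used strand: besides Ube2e1, Ube2g2 (with Mir1930) and Ube2j2 these include Usp14 (with Thoc1), Usp16 (with Cct8), Usp34 (with Ahsa2) and Usp54 (with Ppp3cb). In the GENCODE vM21 transcripts 42 members shared no 50-base word with another gene and 21 shared 10% or more, mostly with pseudogenes or overlapping genes. The share was 91.2% for Ube2v1, 59.01% for Ube2e1, 52.3% for Usp49, 46.3% for Ube2h, 45.3% for Usp14 and 38.9% for Usp33. It was 24.4% for Usp38, 22.8% for Usp1, 17.8% for Ube2c and 16.8% for Usp34. Ube2j2 had 13.5%, Ube2dnl 11.7% and Ube2n 10.7%, and the values of all these genes are uncertain. The share was 5.90% for Ube2g2 and 0.211% for Ube2m, and 0 for Ube2a, Ube2b, Ube2cbp, Ube2j1, Ube2k, Usp26, Usp42, Usp48 and Usp51. The median transcript was 2480 nt long for Ube2 genes and 4732 nt for Usp genes. Over the 78 members measured in the MVH IP and lysate, the log2 ratio had a rank correlation of -0.04 with transcript length and 0.11 with GC content. The points share the same libraries. Members' correlations with length elsewhere ran from -0.12 (MVH IP over pellet2) to 0.18 (library labelled hetMIWI over round spermatids). Over all genes, the correlation with length was -0.095 for MVH IP over lysate and -0.19 for MVH IP over pellet2. It was 0.17 for round spermatids over lysate and -0.30 for the library labelled hetMIWI over round spermatids. The part of length in the values was not tested.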

How the data were processed

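Deposited values were in FPKM per the file headers, made with TopHat and Cuffdiff on mm9 per the submitters' processing notes; no source used here states versions, read filters, scaling between conditions or depth. The joint table held 5 conditions in 10 pairs. The separate gene tables were scaled apart by the authors and start at 5 FPKM (lowest value 5.00). The deposited transcript table gives an RNA-seq signal with no unit; its small RNA column (1 column) was not used. The p-values and q-values are the authors' deposited Cuffdiff values. A single FPKM per condition and gene left no test of replicates, so the limma fit planned for replicate columns could not be made. Computed here (Python 3.11.15, pandas 2.3.3, numpy 2.4.6): log2 ratios of (FPKM + 1) over all genes with a mean of at least 1 FPKM, called at 2-fold, checked on simulated data. Where a gene had several values in a gene table the highest was used; transcript levels were summed per gene.

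The members, the gene lists and the rule for naming genes were chosen with earlier results of these data known. Named genes were the 5 highest and 5 lowest called members per comparison, members the authors call, the 10 highest in lysate, and 17 with textbook roles in spermatogenesis or chromatin. Alternatives were a pseudocount of 0.1, filters of none, 5 or 20 FPKM, leaving out 0s, centring on the median of all genes, and the other table of a condition. Coordinates of genes are mm9, counted from 1; sequences are GRCm38. The values of some members are not reported here.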

Additional observations from a re-analysis of the deposited data

How the results depend on the processing

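No paired analysis was possible because each condition had 1 deposited value per gene and the columns carry no replicate numbers; for the same reason no replicate could be left out. For all results below the cause of a shift was not tested unless named. With a pseudocount of 0.1 FPKM, 1 gene was lower in supernatant than in lysate, 7 were higher and 4 lower in pellet2 than in lysate, and 4 were lower in the MVH IP than in pellet2. With a mean of at least 5 FPKM, which tests fewer genes, 1 was higher and 1 lower in pellet2 than in lysate, and 1 was lower in the MVH IP than in pellet2, as when members at 0 were left out (1). With a mean of at least 20 FPKM the medians were 0.84 for round spermatids over lysate and -0.11 for the library labelled hetMIWI over round spermatids, and 0 genes were lower in the MVH IP than in round spermatids. With no filter the median for MVH IP over lysate was 0.69. Centring on all genes gave 7 higher, 18 lower and a median of -0.11 for MVH IP over lysate; 6, 10 and -0.22 for MVH IP over pellet2; 2 lower and 0.15 for round spermatids over lysate; 6, 11 and 0.043 for MVH IP over round spermatids; and 0 higher and -0.27 for the library labelled hetMIWI over round spermatids. From the separate tables, MVH IP over lysate had 1 lower and a median of 2.39. With lysate from the joint table, round spermatids had 4 higher, 6 lower and a median of -0.34. With the MVH IP from the joint table, 4 were lower than in round spermatids and the median was 0.57. Turns of sign were checked for genes named by the rule above alone. Among those called, signs turned for Usp24 in MVH IP over lysate (0.026, separate tables). In round spermatids over lysate from the joint table they turned for Usp1 (-0.14) and Usp7 (-0.078). In MVH IP over round spermatids they turned after centring for Ube2n (-0.48), Ube2s (-0.47) and Usp7 (-0.55). With the joint MVH IP value Ube2v2 turned there (-0.21). Called genes outside the rule turned too, among them Ube2q1 (-0.84), Usp12 (-0.29) and Ube2w (-0.092) in MVH IP over round spermatids after centring. Ube2j2, called higher there, had 0.0721 FPKM in the joint MVH IP and 30.2 FPKM in round spermatids. Of genes not called, the separate tables also turned Ube2j1 (2.42), Usp1 (1.64), Ube2n (1.41), Usp47 (0.78) and Usp8 (0.68) in MVH IP over lysate. The turns of these genes and of Usp24 include the difference in scale between the tables. Over all genes the separate values differed from the joint ones by a median log2 of -1.29 for lysate and 0.20 for the MVH IP. Some other uncalled ratios turned under centring or with the other table.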
